A study of Mus musculus with 48 samples.

Results

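The annexins are a family of proteins that bind phospholipid membranes when calcium rises, and 9 of their genes (*Anxa1*, *Anxa2*, *Anxa3*, *Anxa4*, *Anxa5*, *Anxa6*, *Anxa7*, *Anxa8* and *Anxa11*) were followed here through RNA-seq and Ribo-seq of mouse embryonic stem cells (mESCs). They were taken by gene symbol from the 55335 genes of the deposited tables, and the family was chosen because *Anxa8* is among the strongest increases in *Nrde2*-KO. Which *Nrde2*-KO experiment the choice rested on is not stated. The first experiment is taken here as the one behind it, and the second may have served too. The values of the first experiment are therefore given without a test, and the increase of *Anxa8* in the second as a description. NRDE2 is a nuclear protein that binds the RNA helicase MTREX, a cofactor of the nuclear RNA exosome, and CCDC174 is a nuclear protein that the study examined beside it. All cells were mESCs of a male line, a hybrid of 129 and C57BL/6 mice that carries a Cre-ERT2 recombinase in *Rosa26*. They grew with serum, LIF and inhibitors of GSK3 and MEK, and each edited line was a clone with both alleles changed.

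The RNA-seq groups, with 2 libraries each, were as follows. In both *Nrde2* experiments the WT cells carried a floxed *Nrde2* that was left intact, and the *Nrde2*-KO cells were exposed for 4 d to 100 nM 4-hydroxytamoxifen (4OHT), which lets Cre delete the gene. The first experiment also held *Nrde2*Δ*200* cells, with an N-terminally truncated NRDE2, and *Nrde2-D174R* cells, with a point mutation in the region that binds MTREX, neither of them given 4OHT and both compared with the same WT libraries. *Mtrex*-KO cells were exposed to 100 nM 4OHT for 3 d, and their WT carried the intact floxed *Mtrex*. *Ccdc174-dTAG* cells were kept for 24 h in 500 nM dTAG-13, which leads to degradation of their CCDC174-FKBP12 fusion protein, and their WT carried the same fusion without dTAG-13. The second *Nrde2* experiment and the *Ccdc174* experiment were each run without and with cycloheximide (CHX, an inhibitor of translation) at 0.1 mg/ml for 4 h. Ribo-seq, which sequences the RNA covered by ribosomes, was made from 2 WT and 2 *Nrde2*-KO libraries, the latter after 4 d of 4OHT by the labels, and after 3 d followed by growth overnight by the study's methods. Loss of *Nrde2* or *Mtrex* and exposure to 4OHT with active Cre cannot be told apart in these groups, since WT cells had no 4OHT.

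Annexins share a core of repeated calcium- and lipid-binding folds and differ in their N-terminal ends, which bind other proteins, among them small S100 proteins. ANXA2 holds plasminogen and its activators at the cell surface together with S100A10, ANXA1 is a ligand of formyl peptide receptors, and several annexins gather at membrane wounds with AHNAK, dysferlin, calpains and ESCRT proteins. ANXA8 is best known from epithelial cells, where it binds late endosomes.

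The reads in genes ranged from 28683644 to 36272309 per RNA-seq library and from 3475051 to 5035940 per Ribo-seq library. Levels are normalized CPM: the deposited CPM (read counts scaled to a common library total) after scaling of each library by its median ratio to the others. In limma fits over all genes, a gene was called when its adjusted p (Benjamini-Hochberg) was under 0.01 and its level at least doubled or halved, that is, its log2 fold change lay outside -1 to 1. The share of all tested genes called by the same rule is printed as background. *Nrde2* RNA, which checks the labels, fell from 52.9 to 19.8 normalized CPM in the second experiment (log2 fold change -1.40), and *Mtrex* RNA fell from 115 to 44.0 in *Mtrex*-KO (log2 fold change -1.39). With CHX, *Nrde2* RNA was 235 in WT and 255 in *Nrde2*-KO, so it does not separate those libraries, and *Ccdc174* RNA does not report on a degraded protein. Of 12 genes of naive mESCs, 12 passed the filter on low values in the libraries without CHX, and their summed level lay between 4910 and 6975 normalized CPM in those libraries. All 9 annexin genes passed the filter in each fit, and all are protein coding.

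*Anxa8* lies on chromosome 14 (GRCm38, chr14:34085981-34100571, plus strand), within *A630023A22Rik*, a protein-coding gene of the opposite strand, which reached at most 0.407 normalized CPM in any library. *Anxa7* and *Anxa11* are on the same chromosome, at chr14:20455260-20480133 and chr14:25842156-25886804. *Anxa1* (chr19:20373428-20390944, minus strand), *Anxa2* (chr9:69453620-69491795, plus strand) and *Anxa3* (chr5:96793339-96845966, plus strand) are the other members that rose in *Mtrex*-KO. The RefSeq promoters (GRCm38.p6, windows of 300 bases around the start of a gene, most of them upstream) cover 7 of the 9 genes, and those of *Anxa8*, *Anxa1* and *Anxa2* are printed because these genes rose together in *Mtrex*-KO. Capitals mark matches, on either strand, to TGANTCA (bound by AP-1), GGAATG (bound by TEAD factors) or TATAAA (the TATA box), motifs whose letters do not overlap in these windows.
Anxa8, chr14:34085729-34086028, plus strand: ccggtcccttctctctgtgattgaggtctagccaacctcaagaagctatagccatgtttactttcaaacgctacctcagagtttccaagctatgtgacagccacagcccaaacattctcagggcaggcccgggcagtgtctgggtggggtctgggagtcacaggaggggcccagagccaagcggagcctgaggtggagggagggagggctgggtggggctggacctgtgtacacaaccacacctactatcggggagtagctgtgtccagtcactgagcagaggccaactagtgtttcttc
Anxa1, chr19:20390622-20390921, minus strand: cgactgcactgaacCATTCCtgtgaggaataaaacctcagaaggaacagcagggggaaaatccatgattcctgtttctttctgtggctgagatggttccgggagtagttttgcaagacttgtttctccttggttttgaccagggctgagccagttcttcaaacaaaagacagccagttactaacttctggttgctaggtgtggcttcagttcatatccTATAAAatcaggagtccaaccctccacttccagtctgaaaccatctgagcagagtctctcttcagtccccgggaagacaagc
Anxa2, chr9:69453433-69453732, plus strand: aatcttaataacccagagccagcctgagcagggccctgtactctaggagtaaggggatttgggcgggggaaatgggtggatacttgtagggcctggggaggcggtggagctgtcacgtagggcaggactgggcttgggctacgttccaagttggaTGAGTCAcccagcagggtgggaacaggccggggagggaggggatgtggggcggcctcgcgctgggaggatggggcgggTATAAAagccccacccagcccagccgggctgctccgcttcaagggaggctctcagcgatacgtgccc
The *Anxa8* window held none of these letters, *Anxa1* held 1 match to the TEAD and 1 to the TATA motif, and *Anxa2* held 1 match to the AP-1 and 1 to the TATA motif. Among the 32851 windows of the RefSeq table, 7.81% held TGANTCA, 14.7% GGAATG and 13.6% TATAAA. CpG dinucleotides numbered 5 in *Anxa8*, 3 in *Anxa1* and 13 in *Anxa2*, against a median of 7 over the table. The windows of *Anxa4*, *Anxa5*, *Anxa7* and *Anxa11* held none of these motifs either.

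The study asked how NRDE2 and CCDC174 bear on splicing, so the 5′ splice sites of the annexin genes were read from GRCm38 and GENCODE release M21, as 3 exon and 6 intron bases. The most frequent base at each position over 198502 sites of protein-coding transcripts spells CAGGTAAGT, and capitals mark the bases that match it. For each gene that rose in *Nrde2*-KO or *Mtrex*-KO, a site with the fewest matches is shown, so that the weakest sites of each pre-mRNA can be seen. Where several sites tie, the first from the 5′ end of the gene is given: 2 sites tie in *Anxa8*, 3 in *Anxa1*, 2 in *Anxa2* and 6 in *Anxa3*.
Anxa8, intron 4, chr14:34091912-34091920, plus strand: aAGGTActc
Anxa1, intron 4, chr19:20383751-20383759, minus strand: aAGGTAgtg
Anxa2, intron 4, chr9:69476145-69476153, plus strand: aAGGTActg
Anxa3, intron 2, chr5:96797451-96797459, plus strand: tgGGTgAGT
The first 3 of these match at 5 bases. All 122 sites of the 9 genes begin the intron with GT, their median match was 6 bases, as over all sites, and 14.8% of them matched at 5 bases or fewer, against 17.5% of all sites. *Anxa8* had 2 such sites among 11 introns and *Anxa6* had 4 among 25, while *Anxa3* and *Anxa11* had 0.

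In untreated WT cells the levels of the annexin genes per exon length ran from 0.360 to 63.8 normalized CPM per kb as group means. Exon length is the joined length of all annotated exons of a gene, over all its transcripts, and the order of the genes depends on it. *Anxa6*, which carries more annexin repeats than any other family member, was highest in each of the 4 WT groups, at 34.0 to 63.8 normalized CPM per kb of exon. *Anxa7*, with a long N-terminal region, followed at 23.9 to 32.3, and in the *Mtrex* WT its libraries (28.9 and 35.6) overlapped those of *Anxa6* (30.3 and 37.7). The exon length was 5991 bases for *Anxa7* and 2930 for *Anxa6*. Before division by length, *Anxa7* had 184 and 191 normalized CPM in the first WT, above *Anxa6* with 143 and 125. *Anxa7* was also above *Anxa6* in the *Mtrex* WT, and below it in the second WT and the *Ccdc174* WT. *Anxa4*, known from epithelial membranes, came next at 13.8 to 19.2 per kb. *Anxa5*, the phosphatidylserine-binding protein used to stain apoptotic cells, had 4.66 to 7.98 per kb and *Anxa11*, which tethers RNA granules to lysosomes, 2.98 to 7.26, with no fixed order between them. *Anxa1* (1.66 to 3.60), *Anxa2* (1.52 to 3.23) and *Anxa8* (2.02 to 4.28) formed a low group whose order changed from one WT to another. *Anxa3* was lowest in each WT group, at 0.360 to 0.640 per kb.

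**Figure D1:**
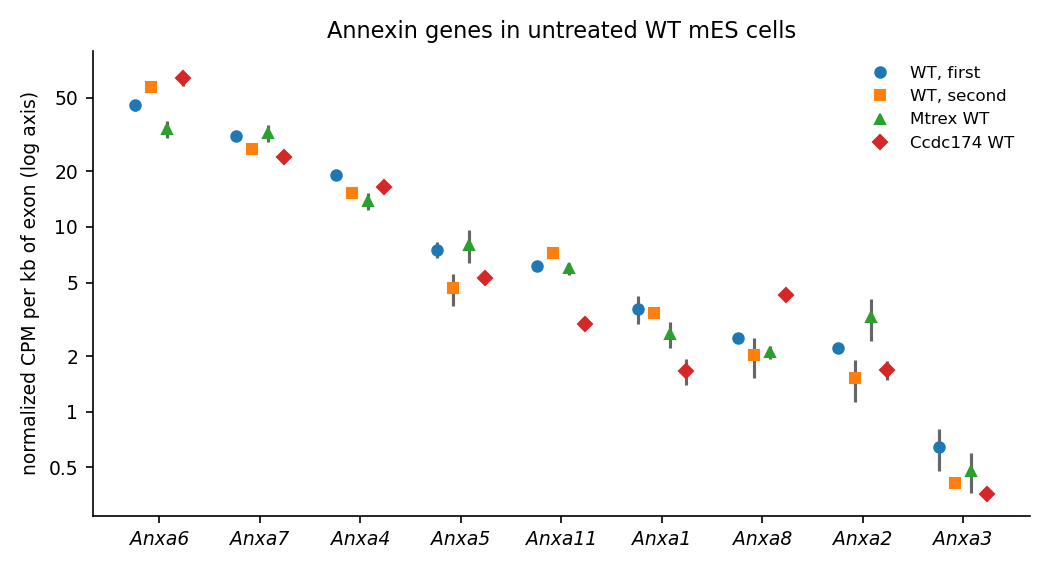
Level of each annexin gene in the 4 untreated WT groups of RNA-seq, in normalized CPM per kb of exon on a log axis. Symbols are means of 2 libraries and vertical lines run from the lower to the higher library, and *Anxa6*, *Anxa7* and *Anxa4* stand above the other 6 genes while *Anxa3* lies lowest.

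*Anxa8* RNA was high in each set of *Nrde2*-KO libraries. In the first experiment, taken here as the one behind the choice of the family, *Anxa8* had 39.4 and 39.9 normalized CPM in the *Nrde2*-KO libraries and 4.43 and 5.02 in WT. This log2 fold change of 3.01 ranked at place 3 of 14889 genes. In that experiment 2 of 9 members passed the thresholds upward, where 3.02% of all genes did, and nothing is read from that count. The second experiment used other libraries, but the choice may have rested on them too. There, *Anxa8* had 33.1 and 19.4 normalized CPM in *Nrde2*-KO and 4.73 and 2.86 in WT, so the groups did not overlap. Replicate 1 was the higher library in both groups. *Anxa8* had a log2 fold change of 2.70 and was the only member past the thresholds, where 2.41% of all genes rose. Since the choice may have rested on these values, they are a description and no p is given for *Anxa8* here. In these bulk samples more cells with *Anxa8* RNA and more *Anxa8* RNA per cell cannot be told apart.

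*Anxa8* also rose in cells under CHX and in the ribosome-covered RNA. Under CHX, *Anxa8* had 20.7 and 11.5 normalized CPM in *Nrde2*-KO against 2.50 and 1.19 in WT, which gave 2.98 as the log2 fold change (SE 0.30, limma adjusted p = 3.4e-05). It was 1 member of 9 called, beside 2.83% of all genes that rose. In Ribo-seq, *Anxa8* had 16.4 and 14.7 normalized CPM in *Nrde2*-KO, from 91 and 113 reads, and 1.96 and 2.54 in WT, from 15 and 19 reads. The *Nrde2*-KO libraries were thus far above both WT libraries, with a log2 fold change of 2.67 (SE 0.22, limma adjusted p = 1.9e-08), again as 1 member of 9, beside 3.62% of all genes. The effect on *Anxa8* with CHX minus that without CHX was 0.28 on the log2 scale (95% interval -0.69 to 1.24, limma adjusted p = 0.83), and the effect in Ribo-seq minus that in RNA-seq was -0.03 (95% interval -0.85 to 0.78, limma adjusted p = 0.97). In limma 0 of the 9 members passed the thresholds for either difference, beside 0.172% and 1.19% of all genes. For each difference 1 member had an unadjusted p below 0.05, and edgeR and DESeq2 called 0.

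**Figure D2:**
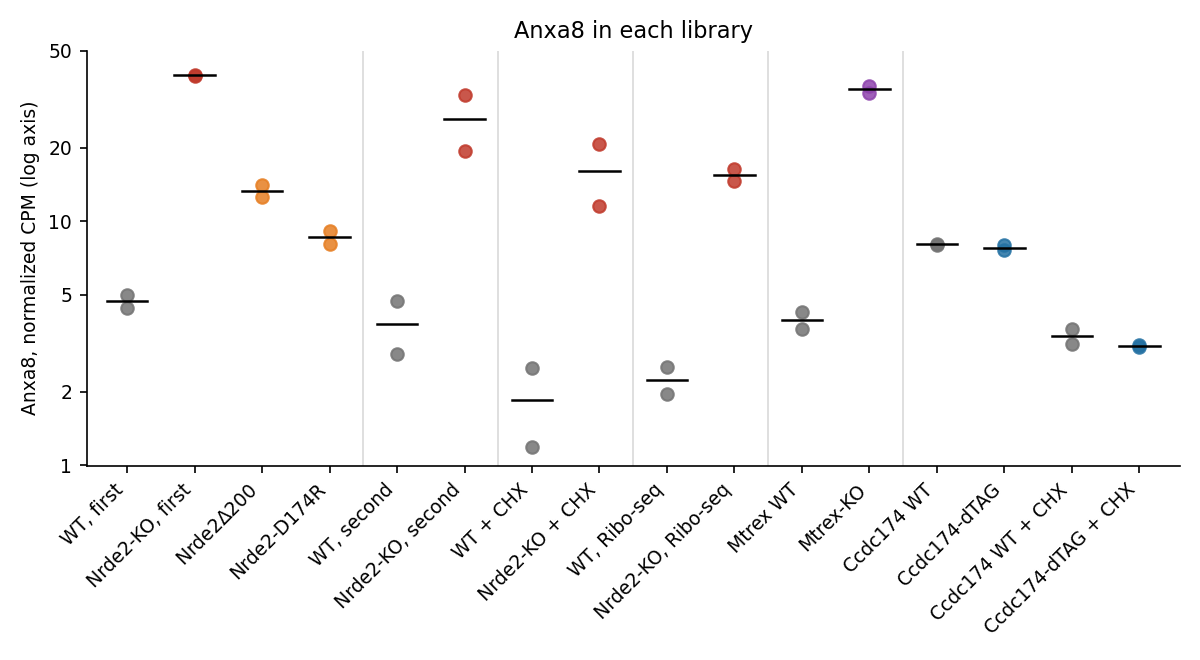
*Anxa8* in each of the 32 libraries, in normalized CPM on a log axis, with points for libraries and a black line for the group mean (gray WT, red *Nrde2*-KO, orange *Nrde2* mutants, purple *Mtrex*-KO, blue *Ccdc174-dTAG*). All *Nrde2*-KO and *Mtrex*-KO libraries lie above their own WT, and *Ccdc174-dTAG* lies with its WT. Ribo-seq was scaled on its own, so its levels are not set against RNA-seq.

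Over the 14 RNA-seq groups the mean level of *Anxa8* was highest in *Nrde2*-KO of the first experiment (39.7 normalized CPM), followed by *Mtrex*-KO (34.8) and *Nrde2*-KO of the second experiment (26.2 ± 9.68, SD, n = 2). *Nrde2*-KO with CHX (16.1 ± 6.50) came next, its libraries overlapping those of the second experiment without CHX and spanning those of *Nrde2*Δ*200* (13.3). *Nrde2-D174R* (8.60), the *Ccdc174* WT (8.04) and *Ccdc174-dTAG* (7.81) followed, and each of these groups overlapped its neighbour. The other WT groups without CHX had 3.79 to 4.72. The libraries of the *Mtrex* WT (3.64 and 4.25) lay below those of the first *Nrde2* WT (4.43 and 5.02), and those of the second *Nrde2* WT (4.73 and 2.86) overlapped both. With CHX, the *Ccdc174* WT had 3.38, *Ccdc174-dTAG* 3.08 and the *Nrde2* WT 1.85.

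*Anxa3*, a phospholipid-binding annexin of neutrophil granules, stood second among the members in *Nrde2*-KO. In the first experiment it had 5.47 and 5.81 normalized CPM against 1.73 and 2.94 in WT. In the second experiment *Anxa3* had 3.72 and 2.75 in *Nrde2*-KO and 1.41 and 1.60 in WT, without overlap, with a log2 fold change of 0.98 (SE 0.24, limma adjusted p = 0.0049), just under the fold threshold. edgeR and DESeq2 on the recovered reads put it past the threshold, and without *Nrde2*-KO replicate 2 it had 1.18 (limma adjusted p = 0.0091). Without *Nrde2*-KO replicate 1 *Anxa3* had 0.78 (adjusted p = 0.059), without WT replicate 1 it had 0.90 (adjusted p = 0.039) and without WT replicate 2 it had 1.06 (adjusted p = 0.021). In Ribo-seq, *Anxa3* had 3.24 and 4.16 in *Nrde2*-KO and 1.83 and 1.74 in WT (log2 fold change 0.95, limma adjusted p = 0.022), and under CHX 2.35 and 1.88 against 1.04 and 1.29 (0.74, adjusted p = 0.016).

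*Anxa6* and *Anxa11* were lower in *Nrde2*-KO, by less than the fold threshold. *Anxa6* had 117 and 108 normalized CPM in *Nrde2*-KO of the second experiment and 175 and 162 in WT, with a log2 fold change of -0.58 (limma adjusted p = 0.001). The difference was -0.54 under CHX (adjusted p = 3.8e-05) and -0.73 in Ribo-seq (adjusted p = 1.4e-06), where WT had 91.3 and 99.2 and *Nrde2*-KO 56.8 and 57.4. *Anxa6* groups did not overlap in any of these comparisons. *Anxa11* had 18.6 and 15.5 normalized CPM against 31.0 and 29.0 in WT of the second experiment (log2 fold change -0.81, limma adjusted p = 0.001), and -0.49 under CHX (adjusted p = 7.3e-04) and -0.38 in Ribo-seq (adjusted p = 0.046). In all, 4 of 9 members (*Anxa3*, *Anxa6*, *Anxa8* and *Anxa11*) had an adjusted p below 0.01 in the second experiment, beside 18.7% of all genes. *Anxa8* is counted there although the family was chosen by it.

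*Anxa1*, *Anxa2*, *Anxa4*, *Anxa5* and *Anxa7* had log2 fold changes between -0.28 and 0.26 in the second experiment, with adjusted p of 0.25 or more. *Anxa7* was 0.24 lower on the log2 scale under CHX (log2 fold change -0.24, limma adjusted p = 0.003) and 0.50 lower in Ribo-seq (-0.50, adjusted p = 1.7e-04). For *Anxa7* the effect in Ribo-seq minus that in RNA-seq was -0.33, with an adjusted p of 0.075. The median of the 9 members was -0.10 in the second experiment, -0.14 under CHX and -0.0017 in Ribo-seq, against 0.0056, 0.0095 and 0.0029 over all genes. That of the second experiment was 0.08 without WT replicate 1 and -0.04 without *Nrde2*-KO replicate 2, that under CHX was -0.05 and -0.26 without WT replicates 1 and 2, and that in Ribo-seq lay between -0.12 and 0.02 when 1 library was left out.

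**Figure D3:**
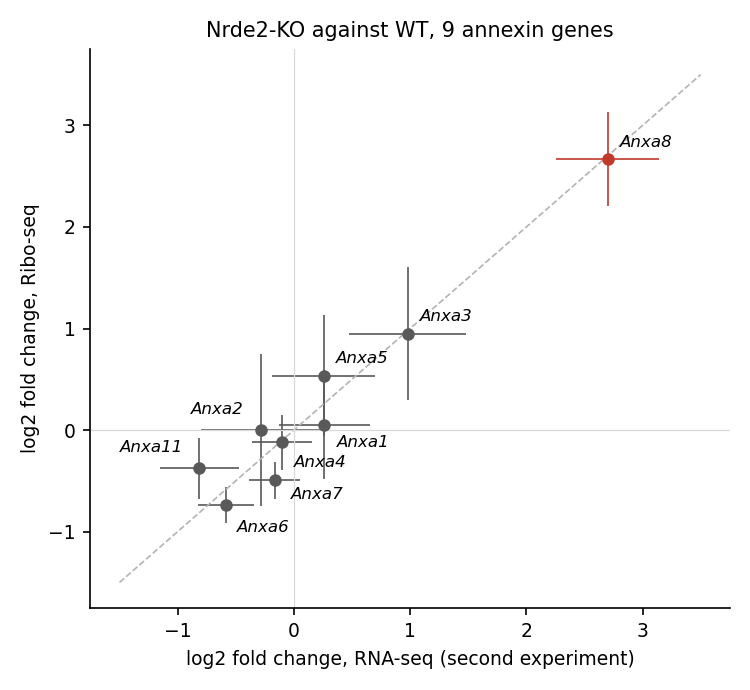
Log2 fold change of the 9 annexin genes in *Nrde2*-KO against WT, in RNA-seq of the second experiment (x axis) and in Ribo-seq (y axis), with 95% intervals from limma, 2 libraries per group. *Anxa8* (red, called in both assays) stands at 2.70 and 2.67, *Anxa3* near 1 on both axes, and the other 7 genes lie between -0.81 and 0.53.

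Genes of the 2C-like state, a small set active in the early embryo, were higher in *Nrde2*-KO. The sum of a list of 11 went from 8.38 and 8.72 normalized CPM in the WT libraries of the second experiment to 119 and 127. The filter used the mean of all libraries without CHX, so genes this low in WT could pass it through the groups where they were high. All 10 of the 10 that passed rose, beside 2.41% of all genes, and nothing is read from that count. Of the trophectoderm list 2 of 7 measured genes rose (*Cdx2* and *Gata3*), and of the primitive endoderm list 2 of 9 (*Dab2* and *Gata6*). Genes low in WT could pass the filter in the same way here, so nothing is read from these counts either. The summed trophectoderm level was 80.3 to 94.01 in WT and 65.6 to 94.1 in *Nrde2*-KO, and that of primitive endoderm 277 to 296 and 247 to 282. No marker of these lists was at 0 in either *Nrde2*-KO library. Their part in the level of *Anxa8* was not tested.

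*Anxa8* was above WT in both NRDE2 mutants and passed the thresholds in the truncated one. It had 12.6 and 14.1 normalized CPM in *Nrde2*Δ*200*, against 4.43 and 5.02 in the WT libraries that the first *Nrde2*-KO comparison also used, so that the comparisons share them. *Anxa8* rose in *Nrde2*Δ*200* by a log2 fold change of 1.45 (SE 0.21, limma adjusted p = 2.1e-04), as 1 member of 9, where 1.59% of all genes rose. In *Nrde2-D174R* it had 9.16 and 8.04, also above both WT libraries, with a log2 fold change of 0.83 (95% interval 0.39 to 1.28, limma adjusted p = 0.054). The *Ccdc174* WT, with no labelled NRDE2 mutation, lay near these levels, at 8.07 and 8.02. Each mutant line was a clone, so the mutation and the clone cannot be told apart in these comparisons. In *Nrde2-D174R* limma, edgeR and DESeq2 each called 0 members, where limma called 0.215% of all genes in either direction, and 2 members had an unadjusted p below 0.05.

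Against the WT libraries of the second experiment, *Anxa8* was 1.79 higher in *Nrde2*Δ*200* and 1.17 higher in *Nrde2-D174R* on the log2 scale. The choice of the family may have rested on those WT libraries too, so no p is given. The experiment and the genotype cannot be told apart in that comparison. *Anxa7* was lower in *Nrde2*Δ*200*, with 143 and 123 normalized CPM against 184 and 191 in WT (log2 fold change -0.50, limma adjusted p = 0.0036). *Anxa2* had 5.31 and 3.65 in *Nrde2*Δ*200* and 8.19 and 8.24 in WT (-0.86, adjusted p = 0.023), and *Anxa1* 15.2 and 17.8 against 8.70 and 12.2 (0.66, adjusted p = 0.022).

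**Figure D4:**
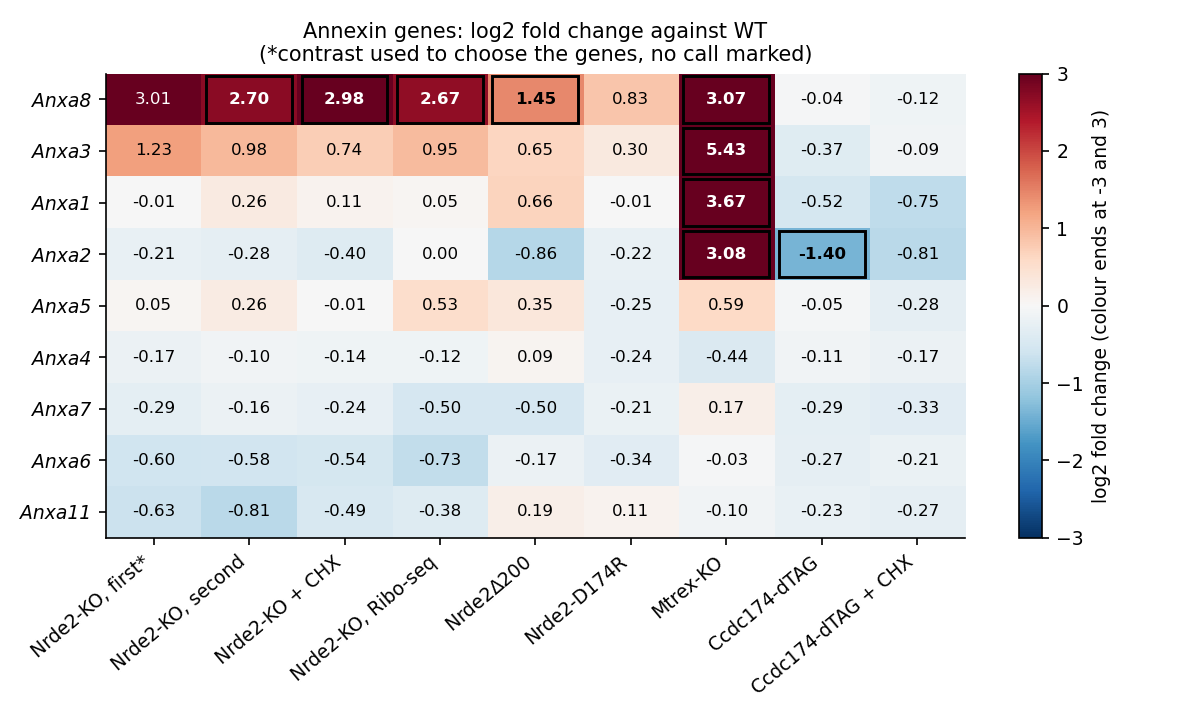
Log2 fold change of each annexin gene (rows) against the WT of its own experiment (columns), from limma, 2 libraries per group, with red for higher and blue for lower levels. Boxes mark called genes: *Anxa8* in 5 columns, *Anxa1*, *Anxa2* and *Anxa3* in *Mtrex*-KO and *Anxa2* in *Ccdc174-dTAG*. The first column, taken as the contrast that chose the genes, carries no mark, and the choice may have rested on the second column too.

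*Mtrex*-KO had the most members called: 4 of 9 rose, *Anxa1*, *Anxa2*, *Anxa3* and *Anxa8*, where 15.8% of all genes rose and 10.9% fell. *Anxa3* had 83.3 and 84.2 normalized CPM in *Mtrex*-KO and 1.31 and 2.17 in WT, so that its log2 fold change was 5.43 (SE 0.24, limma adjusted p = 1.1e-11). *Anxa1* had 103 and 95.1 against 6.40 and 8.89 (log2 fold change 3.67, SE 0.19, adjusted p = 4.1e-11). *Anxa2* had 99.3 and 101 against 8.97 and 15.2 (3.08, SE 0.25, adjusted p = 8.4e-09).

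*Anxa8* had 33.7 and 35.8 normalized CPM in *Mtrex*-KO and 3.64 and 4.25 in WT, with 3.07 as the log2 fold change (SE 0.21, limma adjusted p = 1.2e-09). For each of these 4 genes both *Mtrex*-KO libraries lay above both WT libraries. Per kb of exon, *Anxa3* went from the lowest annexin gene of the WT (0.477) to 22.9 and 23.1 in the *Mtrex*-KO libraries, above *Anxa4* (10.2), *Anxa5* (11.9) and *Anxa11* (5.65) of the same cells, and *Anxa1* reached 33.9, near *Anxa6* (33.2) and *Anxa7* (36.2). *Anxa4* was lower, with 39.6 and 55.1 normalized CPM against 57.1 and 70.8 (log2 fold change -0.44, adjusted p = 0.0043). *Anxa5* had 19.3 and 22.9 against 11.3 and 17.1 (0.59, adjusted p = 0.02), and *Anxa6*, *Anxa7* and *Anxa11* had log2 fold changes between -0.10 and 0.17. With CPM as deposited, where the median of all genes was -0.38, *Anxa7* had -0.23. The median log2 fold change of the 9 members was 0.59, against -0.0017 over all genes. It was 0.20 with CPM as deposited, 0.29 without *Mtrex* WT replicate 1 and 0.88 without *Mtrex* WT replicate 2.

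**Figure D5:**
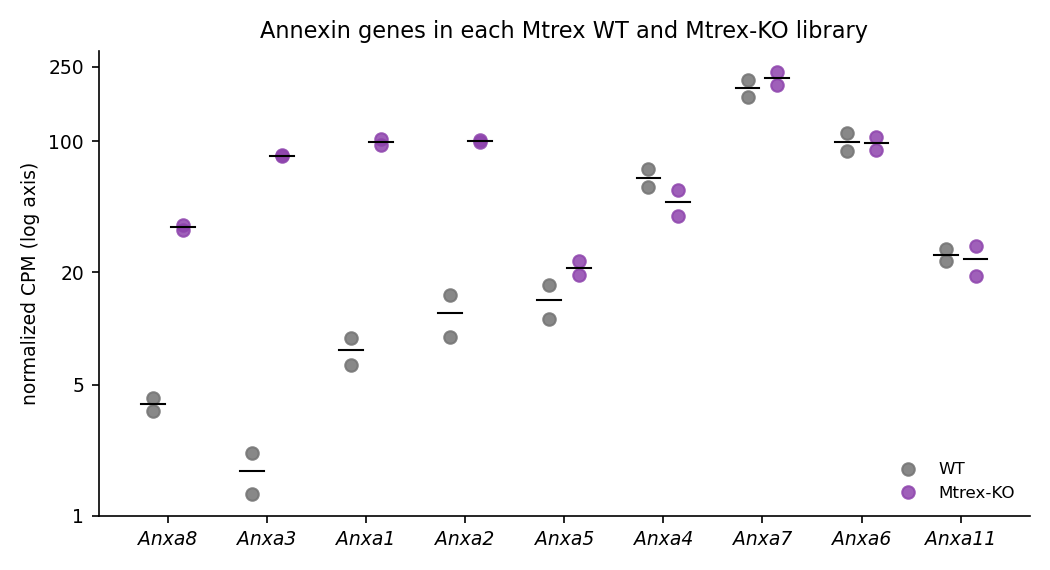
The 9 annexin genes in each *Mtrex* WT (gray) and *Mtrex*-KO (purple) library, in normalized CPM on a log axis, with short lines for the means of 2 libraries. *Anxa8*, *Anxa3*, *Anxa1* and *Anxa2* reach 33.7 to 103 in *Mtrex*-KO. The other 5 genes had log2 fold changes between -0.44 (*Anxa4*) and 0.59 (*Anxa5*).

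Some of the *Mtrex*-KO increases were larger than those of *Nrde2*-KO in the second experiment. The effect of *Mtrex*-KO minus that of *Nrde2*-KO was 4.45 on the log2 scale for *Anxa3*, 3.40 for *Anxa1* and 3.36 for *Anxa2*, and these 3 of 9 members passed the thresholds (the highest limma adjusted p was 8.7e-07), where 12.8% of all genes had a larger effect in *Mtrex*-KO. For *Anxa8* that difference was 0.36 (95% interval -0.26 to 0.99, limma adjusted p = 0.33), and -0.08 with CPM as deposited.

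Marker genes moved in the same libraries. In *Mtrex*-KO, where 15.8% of all genes rose and 10.9% fell, 6 of 7 measured genes of the trophectoderm list rose, among them *Krt18* (log2 fold change 3.89) and *Cdx2* (1.58), and the summed level went from 63.9 and 100.1 to 496 and 510 normalized CPM. The largest part of that sum came from the keratins *Krt8* and *Krt18*, and the trophoblast factor *Elf5* had 0.122 normalized CPM, while no marker of the list was at 0. Of the primitive endoderm list 5 of 9 rose, with sums of 390 to 420 in WT and 569 to 608 in *Mtrex*-KO. The sum of the 2C-like list was 5.90 and 17.8 in WT and 118 and 353 in *Mtrex*-KO. Its 10 of 10 tested genes rose. In each of these lists genes low in WT could pass the filter through *Mtrex*-KO itself, so nothing is read from these counts. Of the naive mESC genes 2 of 12 fell (*Nanog* and *Fgf4*), and their sum was 6881 to 6975 in WT and 5229 to 5988 in *Mtrex*-KO. The fibroblast sum was at most 4.23. In *Mtrex*-KO replicate 1, 72.1% of the total was in genes, against 82.7% to 92.1% in the other RNA-seq libraries, and *Anxa1*, *Anxa2*, *Anxa3* and *Anxa8* were also called without that library. The part of these marker genes in the annexin levels was not tested.

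Depletion of CCDC174 for 24 h left *Anxa8* near its WT, and *Anxa2* was the only member that fell. *Anxa2* had 2.202 and 2.214 normalized CPM in *Ccdc174-dTAG* and 5.53 and 7.02 in WT, which gave -1.40 as the log2 fold change (SE 0.25, limma adjusted p = 9.8e-04), where 1.16% of all genes fell. Without WT replicate 2 the adjusted p of *Anxa2* was 0.02, and without *Ccdc174-dTAG* replicate 2 it was 0.012. All 9 members had values below 0, from -1.40 to -0.04, with a median of -0.27 against 0.025 over all genes. *Anxa8* had 8.03 and 7.60 in *Ccdc174-dTAG* and 8.07 and 8.02 in WT (log2 fold change -0.04, 95% interval -0.48 to 0.40, limma adjusted p = 0.94). Its change in *Ccdc174-dTAG* minus that in *Nrde2*-KO of the second experiment was -2.74. *Anxa8* was the only member past the thresholds for that difference, beside 0.504% of all genes. The difference holds the *Nrde2*-KO increase (2.70) on which the choice of the family may have rested. No p is given for it, and nothing is read from that call.

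Under CHX limma, edgeR and DESeq2 each called 0 members in *Ccdc174-dTAG*, beside 0.911% of all genes in limma. *Anxa1* had 1.86 and 1.85 normalized CPM against 3.59 and 3.02 in WT (log2 fold change -0.75, limma adjusted p = 0.0092), and *Anxa7* had 74.3 and 75.5 against 96.3 and 92.3 (-0.33, adjusted p = 0.0012). These 2 of 9 members had an adjusted p below 0.01, beside 9.05% of all genes, and all 9 had values below 0. *Anxa2* had 1.84 and 2.73 against 3.97 and 4.30 (-0.81, adjusted p = 0.011), and -1.07 without *Ccdc174-dTAG* replicate 2 (adjusted p = 0.0088), which is past the thresholds. The effect of the depletion on *Anxa2* with CHX minus that without CHX was 0.59, with a limma adjusted p of 0.63. For that difference 0 members passed the thresholds in limma, edgeR or DESeq2, and 0 had an unadjusted p below 0.05, beside 0.0727% of all genes called.

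In the comparison of CHX with no CHX, the 9 members had log2 fold changes below 0 in both WT lines. Their median was -0.37 in the *Nrde2* WT, against 0.0035 over all genes, and -0.50 in the *Ccdc174* WT, against -0.0080. *Anxa8* in the *Ccdc174* WT was the only member called in either WT line, and *Anxa11* had -0.01 there (adjusted p = 0.92). With CPM as deposited, where the median of all genes was 0.20 and 0.21, *Anxa11* in the *Ccdc174* WT had 0.21 in place of -0.01 and the other members stayed below 0. *Anxa8* had 3.16 and 3.61 normalized CPM with CHX and 8.07 and 8.02 without it in the *Ccdc174* WT, a log2 fold change of -1.19 (SE 0.32, limma adjusted p = 0.0046), where 2.62% of all genes fell. In *Ccdc174-dTAG* it had 3.11 and 3.05 against 8.03 and 7.60 (-1.27, adjusted p = 0.0029), where 2.68% of all genes fell. These calls of *Anxa8* were lost when any library of the pair of groups was left out. In the *Nrde2* WT and in *Nrde2*-KO limma, edgeR and DESeq2 each called 0 members, where 2.91% and 3.17% of all genes fell in limma, and 6 and 7 members had an unadjusted p below 0.05. In the *Nrde2* WT *Anxa8* had 2.50 and 1.19 against 4.73 and 2.86 (-0.98, adjusted p = 0.015). Without untreated replicate 2 that value was -1.32 (adjusted p = 0.0088), and without CHX replicate 1 it was -1.45 (adjusted p = 0.0031), both past the thresholds. *Anxa8* had in *Nrde2*-KO 20.7 and 11.5 against 33.1 and 19.4 (-0.70, adjusted p = 0.068). *Anxa4*, *Anxa6* and *Anxa7* had an adjusted p below 0.01 in all 4 of these comparisons, with log2 fold changes between -0.65 and -0.37, while *Anxa11* lay between -0.26 and 0.06. These comparisons use the same libraries as those of *Nrde2*-KO and *Ccdc174-dTAG* above. The summed level of the 12 naive mESC genes was lower with CHX too, 3387 to 4361 normalized CPM in the WT libraries against 5112 to 6568 without it, and its part in the annexin levels was not tested.

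*Anxa10*, an annexin gene outside the 9, went the other way with CHX. It had 6 reads over both untreated *Nrde2* WT libraries and 91 with CHX (0.0892 and 1.10 normalized CPM, log2 fold change 1.98). It went from at most 0.114 in any untreated WT library to 1.43 and 1.61 in the *Ccdc174* WT with CHX. Being this low without CHX, *Anxa10* passed the filter through the libraries with CHX, so no test is given for it. *Anxa9* and *Anxa13*, the other 2 annexin genes of the tables, were at 0.682 and 0 normalized CPM in WT of the first experiment.

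Among the S100 partners, 6 of 8 genes could be tested. *S100a6*, a calcium-binding partner of several annexins, rose in *Mtrex*-KO, where it had 318 normalized CPM against 7.30 in WT (log2 fold change 5.44, SE 0.29, limma adjusted p = 9e-11), while *S100a13* (-2.74) and *S100a16* (-1.39) fell. *S100a10*, the partner of ANXA2, had 58.6 in the *Mtrex* WT and 64.7 in *Mtrex*-KO (0.14, adjusted p = 0.43). *S100a10* fell in *Nrde2*-KO with CHX (-1.15, adjusted p = 1.2e-05) and in *Ccdc174-dTAG* with CHX (-1.12, adjusted p = 5.6e-05), and had -0.90 in the second *Nrde2*-KO experiment (adjusted p = 2.9e-04) and -0.94 in *Ccdc174-dTAG* without CHX (adjusted p = 5.2e-04). *S100a10* and *Anxa2* were both lower in *Ccdc174-dTAG*, and *Anxa2* was far higher in *Mtrex*-KO where *S100a10* did not pass the test.

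Of the membrane repair list, 5 of 14 tested genes rose and 0 fell in *Mtrex*-KO, where 15.8% of all genes rose. *Ahnak*, a giant scaffold that binds the ANXA2-S100A10 complex, went from 605 to 2811 normalized CPM (log2 fold change 2.21, limma adjusted p = 3.3e-09). *Pdcd6ip* (1.47), which recruits ESCRT proteins, *Gca* (1.28) and *Capn2* (1.49), a calpain, rose with it, as did *Dysf* (1.58), the repair protein dysferlin. In *Nrde2*-KO of the second experiment 1 of 14 fell, *Sri* (-1.06), which binds ANXA7, where 2.42% of all genes fell. Of the 7 plasminogen and formyl peptide receptor genes reported here, 3 passed the filter, and these 3 rose in *Mtrex*-KO, where 15.8% of all genes rose. They were *Plaur*, the urokinase receptor (3.92), *Plat* (2.92) and *Plau* (1.21), the urokinase. Genes low in WT could pass the filter through *Mtrex*-KO itself, so nothing is read from that count. *Plg* and the formyl peptide receptor genes were too low to be tested. *Plat*, the tissue plasminogen activator, also rose in Ribo-seq of *Nrde2*-KO (1.65, adjusted p = 0.0073). These lists were written with earlier results of these data known, and their counts describe these genes only.

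Over the 14 RNA-seq group means, the genes whose log2 levels ran most like *Anxa8* among 15227 genes were *Trp53inp1* (Pearson r = 0.952), *Abhd5* (0.942), *Arhgef12* (0.938), *1300017J02Rik* (0.928) and *Pik3r3* (0.925). Among the members, *Anxa1* and *Anxa3* ran most alike (r = 0.942), then *Anxa2* and *Anxa3* (0.876) and *Anxa1* and *Anxa2* (0.852), whereas *Anxa8* and *Anxa3* had 0.728 and *Anxa8* and *Anxa6* had -0.479. These values describe 14 points in which *Mtrex*-KO is far from the rest for *Anxa1*, *Anxa2* and *Anxa3*, and in which several groups share a line or an experiment.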

How the data were processed

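RNA-seq was analysed in 28 libraries and Ribo-seq in 4, with 2 per group, grouped by their labels. The authors aligned the RNA-seq reads to mm10 with STAR (version 2.7.3a in the submitters' processing notes), assigned uniquely mapped reads to GENCODE M23 genes by strand (featureCounts), and deposited the result as CPM. The authors' Ribo-seq CPM were made likewise after removal of duplicate reads. All values (100%) were within 0.1 of whole multiples of 1 read, so reads were recovered for edgeR and DESeq2. BCLIP-seq samples were not used here. Genes were named with GENCODE release M21, which holds 55154 of 55335 identifiers.

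CPM were divided by median-of-ratios factors, 0.25 was added, and log2 values were fitted with limma 3.58.1 (R 4.3.3, trend). Genes under a mean of 0.5 CPM were left out. The fits used 20 libraries without CHX (14889 genes), 8 with CHX (15476), 4 of Ribo-seq (13857), 16 for the effects of CHX (15133) and 8 for Ribo-seq against RNA-seq (14530). A fold change on this scale understates the change of low genes. edgeR 4.0.16, DESeq2 1.42.0, other added values and filters, CPM as deposited, the replicate block and leaving out each library were alternatives. Depth limits the Ribo-seq values of low genes most. Nothing in the labels shows separate cultures, so the p-values measure the spread between these libraries, which may be technical.

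The members and the lists were chosen with earlier results of these data known. Named were the 9 members in each library, the targeted genes, the other annexin genes, up to 4 called genes per list and comparison by smallest p, and the 5 genes most like *Anxa8*. The membrane repair list in *Mtrex*-KO went past that limit, with all 5 called genes named. A gene of the plasminogen list is not reported here. Genes that overlap a member and single marker genes were named after their values were seen.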

Additional observations from a re-analysis of the deposited data

Results flagged for a closer look

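The effect of *Mtrex*-KO against its WT differed from that of *Nrde2*-KO against WT in the second experiment, by a test of the difference itself in limma, for 3 members past both thresholds, as for 12.8% of all genes in the same direction. The difference was 4.45 on the log2 scale for *Anxa3* (adjusted p = 3.3e-08), 3.40 for *Anxa1* (adjusted p = 4e-08) and 3.36 for *Anxa2* (adjusted p = 8.7e-07). *Anxa6* had an adjusted p of 0.0095 with a difference of 0.55, under the fold threshold (-0.03 in *Mtrex*-KO and -0.58 in *Nrde2*-KO), and with CPM as deposited the difference of *Anxa6* was 0.10 (adjusted p = 0.7). The effect of *Ccdc174-dTAG* minus that of *Nrde2*-KO was -2.74 for *Anxa8*. That difference holds the *Nrde2*-KO increase on which the choice of the family may have rested, so no p is given for it. The lines, the days of 4OHT and the experiments differ between these pairs of groups and cannot be told apart from the genes removed.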

How the results depend on the processing

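No called member reversed its direction under an alternative. Of the single members followed through the alternatives, 312 values stayed the same, 14 lost and 13 gained a call. A value stayed the same when it kept its side of the thresholds. Of the counts of members called, 230 stayed within 1.5 times and 27 moved. The single values include *Anxa3* of the first experiment, and the counts include the log2 fold change of *Anxa8* there. Those values carry no call and were judged against the SD between replicates. In the second *Nrde2*-KO experiment 2 members were called in place of 1 with 0.1 added, with CPM as deposited, with edgeR and with DESeq2, and between 1 and 2 without one library, *Anxa3* being the second. With 1 added before log2, *Anxa8* in the first experiment was 2.83. In Ribo-seq 2 were called with CPM as deposited. Against WT of the second experiment 3 were called in *Nrde2*Δ*200* (*Anxa3*, *Anxa5* and *Anxa8*) and 1 in *Nrde2-D174R* (*Anxa8*). Leaving out one library gave 0 to 1 calls in *Ccdc174-dTAG*, 0 to 1 with CHX, and 0 to 1 for CHX in the *Nrde2* WT. For CHX in the *Ccdc174* WT and in *Ccdc174-dTAG*, 0 were called with no filter, with CPM as deposited and without any one library. For the difference of *Ccdc174-dTAG* and *Nrde2*-KO, DESeq2 called 2, *Anxa3* and *Anxa8*. The cause was not tested.

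The replicate numbers name libraries only, with 2 numbers a comparison. The log2 level of replicate 1 minus that of replicate 2 was taken for each gene in both groups of a comparison. The correlation of these differences between the groups was -0.033 for *Nrde2*Δ*200*, -0.026 for Ribo-seq and 0.121 to 0.422 elsewhere. With the replicate number as a block, the counts of members called did not move: 1 in the second *Nrde2*-KO experiment and 4 in *Mtrex*-KO. With CPM as deposited the median of all genes was -0.38 in *Mtrex*-KO, 0.15 in Ribo-seq and 0.20 to 0.24 for CHX. In *Mtrex*-KO 1604 genes then rose and 3094 fell, in place of 2354 and 1618, and in Ribo-seq 834 rose and 271 fell, in place of 502 and 388. The 4 annexin genes that rose in *Mtrex*-KO were called under each alternative.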
